A study of Mus musculus with 16 samples.

Results

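The immediate early genes described here are 10 genes of the early transcriptional response, Fos, Fosb, Junb, Atf3, Egr1, Egr3, Nr4a1, Arc, Ier2 and Dusp1, out of 19937 genes that have a probeset with a single gene symbol on the array. They were chosen by name as well-known genes of that response, and each is represented by its brightest single-symbol probeset, which for all 10 was also the only one. The series asked what misexpression of the neurosensory miR-183 cluster (miR-183, miR-96 and miR-182) does to gene expression in the mouse inner ear. Total RNA was hybridised to 16 Affymetrix MoGene 1.0 arrays, and the deposited values are normalized log2 signals for 34760 probesets. Tg/Tg mice are FVB/NCrl animals homozygous for Tg(GFAP-Mir183,Mir96,Mir182)1MDW, a transgene in which the human GFAP core promoter, active in glia and supporting cells, drives the cluster, and WT mice are littermates that lack it. All transgenic arrays come from 1 line. At postnatal day 18 (P18-cochlea) whole cochlear tissue without the vestibular labyrinth was taken, with 3 Tg/Tg and 3 WT arrays. At postnatal day 5 (P5-OC) the organ of Corti was microdissected, with 5 Tg/Tg and 5 WT arrays. Tissue and age therefore change together, and their parts in a difference between P18-cochlea and P5-OC cannot be told apart. The sources used here do not say whether an array holds 1 animal or a pool, so p-values measure the spread between these samples, which may be partly technical.

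Immediate early genes are transcribed within minutes of a stimulus without new protein synthesis, because the factors that switch them on, such as CREB and serum response factor, are already present and need only phosphorylation. Most encode transcription factors, which in turn drive later genes, and several, Dusp1 among them, encode products that end the signal. In nervous and sensory tissue they report recent activity, but they also respond to growth factors, glucocorticoid, stress and tissue dissection, so that their resting level in dissected tissue is a sum of several inputs.

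Groups follow the sample titles. The age field goes against the title in most samples. These are every P18 array, P5-OC Tg/Tg replicate 5 and every P5-OC WT array. In some samples the tissue or genotype field goes against the title. The values sided with the titles. The probeset of Mir182 read 7.95 to 7.98 in P18-cochlea Tg/Tg, against 3.83 to 3.92 in P18-cochlea WT, and 7.77 to 8.64 in P5-OC Tg/Tg, against 4.25 to 5.46 in P5-OC WT, and those of Mir96 and Mir183 likewise separated the genotypes as titled on all 16 arrays. Over all probesets, pairs of arrays correlated at 0.990 to 0.995 within P18-cochlea and 0.973 to 0.992 within the P5-OC, against 0.902 to 0.937 between them. Array medians were 6.33 to 6.36 at P18 and 6.51 to 6.63 at P5. The defining markers of the labelled tissues were present, with a mean log2 signal of 6.72 to 6.85 for the 6 hair cell markers and 7.71 to 7.89 for the 6 supporting cell markers in P18-cochlea, against 7.24 to 7.67 and 9.36 to 10.14 in the P5-OC. The 6 neutrophil markers stood at 10.71 to 10.88 in P18-cochlea and 4.84 to 5.61 in the P5-OC. Among the P18 arrays, 5 skeletal muscle markers averaged 9.19 to 9.33 in Tg/Tg and 6.41 to 6.48 in WT. Averaged over Kdm5d, Eif2s3y and Uty, which lie on the Y chromosome, the signal was 8.86 in P5-OC Tg/Tg replicate 1 and 3.90 to 4.06 in the other 4 Tg/Tg arrays, against 3.95 in P5-OC WT replicate 1 and 8.61 to 8.96 in the other 4 WT arrays, while all 6 P18 arrays lay between, at 7.22 to 7.66. Xist, a transcript of female cells, read 9.27 to 9.36 in P18-cochlea Tg/Tg and 8.96 to 9.09 in P18-cochlea WT. Each P18 array therefore held RNA of both sexes. In such bulk samples, fewer cells of a type and less RNA per cell cannot be told apart.

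The stretches upstream of Fos, Junb, Atf3 and Dusp1, each of which was called in 2 of the comparisons, are shown because CREB, one of the factors that start this response, acts through a short element in promoters of this class. Each is 250 bases before the RefSeq gene start (GRCm38.p6), 5′ to 3′ on the gene's strand, with every TGACG, the core of the cAMP response element, in capitals on whichever strand it lies (CGTCA is the same letters on the other strand).
Fos, chr12:85473640-85473889, plus strand: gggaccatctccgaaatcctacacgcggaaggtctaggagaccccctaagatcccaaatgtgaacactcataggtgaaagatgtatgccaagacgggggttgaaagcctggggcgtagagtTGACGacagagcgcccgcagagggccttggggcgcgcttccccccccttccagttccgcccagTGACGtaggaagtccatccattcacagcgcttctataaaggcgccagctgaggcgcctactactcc
Junb, chr8:84978749-84978998, minus strand: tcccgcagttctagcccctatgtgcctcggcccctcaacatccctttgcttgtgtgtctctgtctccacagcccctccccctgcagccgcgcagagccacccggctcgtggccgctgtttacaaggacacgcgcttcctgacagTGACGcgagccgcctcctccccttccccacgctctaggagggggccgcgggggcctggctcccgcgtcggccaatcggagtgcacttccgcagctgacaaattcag
Atf3, chr1:191183334-191183583, minus strand: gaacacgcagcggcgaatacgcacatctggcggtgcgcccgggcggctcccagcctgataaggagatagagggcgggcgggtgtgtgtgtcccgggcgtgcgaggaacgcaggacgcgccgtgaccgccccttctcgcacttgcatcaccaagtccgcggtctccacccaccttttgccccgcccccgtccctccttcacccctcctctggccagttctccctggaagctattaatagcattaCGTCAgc
Dusp1, chr17:26508473-26508722, minus strand: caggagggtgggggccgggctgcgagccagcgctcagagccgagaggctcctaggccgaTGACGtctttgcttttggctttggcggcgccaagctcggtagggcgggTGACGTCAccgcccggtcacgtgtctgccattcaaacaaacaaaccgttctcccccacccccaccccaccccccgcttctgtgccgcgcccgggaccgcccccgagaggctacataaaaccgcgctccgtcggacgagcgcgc
Windows from the RefSeq promoter table were used for 6 of the members (these 4, Fosb and Nr4a1), and none for Egr1, Egr3, Arc and Ier2. TGACG occurred on either strand in all 6 windows, against 17.8% of 32851 promoter windows of the same length. Fos held it at bases -129 and -66 before the start, Junb at -106 and Atf3 at -7. The windows of Fosb and Nr4a1 did not end at the gene start given below. That of Fosb (19310046 to 19310295) overlapped the gene in part, and that of Nr4a1 (101266596 to 101266845) lay within it. Counted from the end of its window, Fosb held TGACG at -60, inside the overlap. Nr4a1 held it at 4 places. The whole palindrome TGACGTCA, in which 2 overlapping TGACG matches lie on opposite strands, occurred only in the Dusp1 window (bases -143 to -136), against 1.55% of all windows. The ETS core CCGGAA was found in 1 of the 6 windows, that of Nr4a1, against 12% of all. No match was found in the 6 windows for the CArG box of serum response factor (1.47% of all windows), the AP-1 letters TGANTCA with C or G at N (4.46%) or the Egr letters GCGTGGGCG (0.536%). These are matches of letters, and a missing match says only that the letters are not in this window.

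The members differed little between genotypes and, for some of them, considerably between P18-cochlea and the P5-OC. In P18-cochlea none of the 10 passed the test between Tg/Tg and WT, and in the P5-OC 1 did, Fos, which was lower in Tg/Tg. Between P18-cochlea and the P5-OC, Dusp1, Junb, Atf3 and Arc were higher in both genotypes and Fos in Tg/Tg. The remaining members, Fosb, Egr1, Egr3, Nr4a1 and Ier2, were not called in any comparison. Calls rest on limma fitted to all 16 arrays with 4 group means, two-sided, with Benjamini-Hochberg adjustment over all 34760 probesets and a threshold of 0.05.

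**Figure D1:**
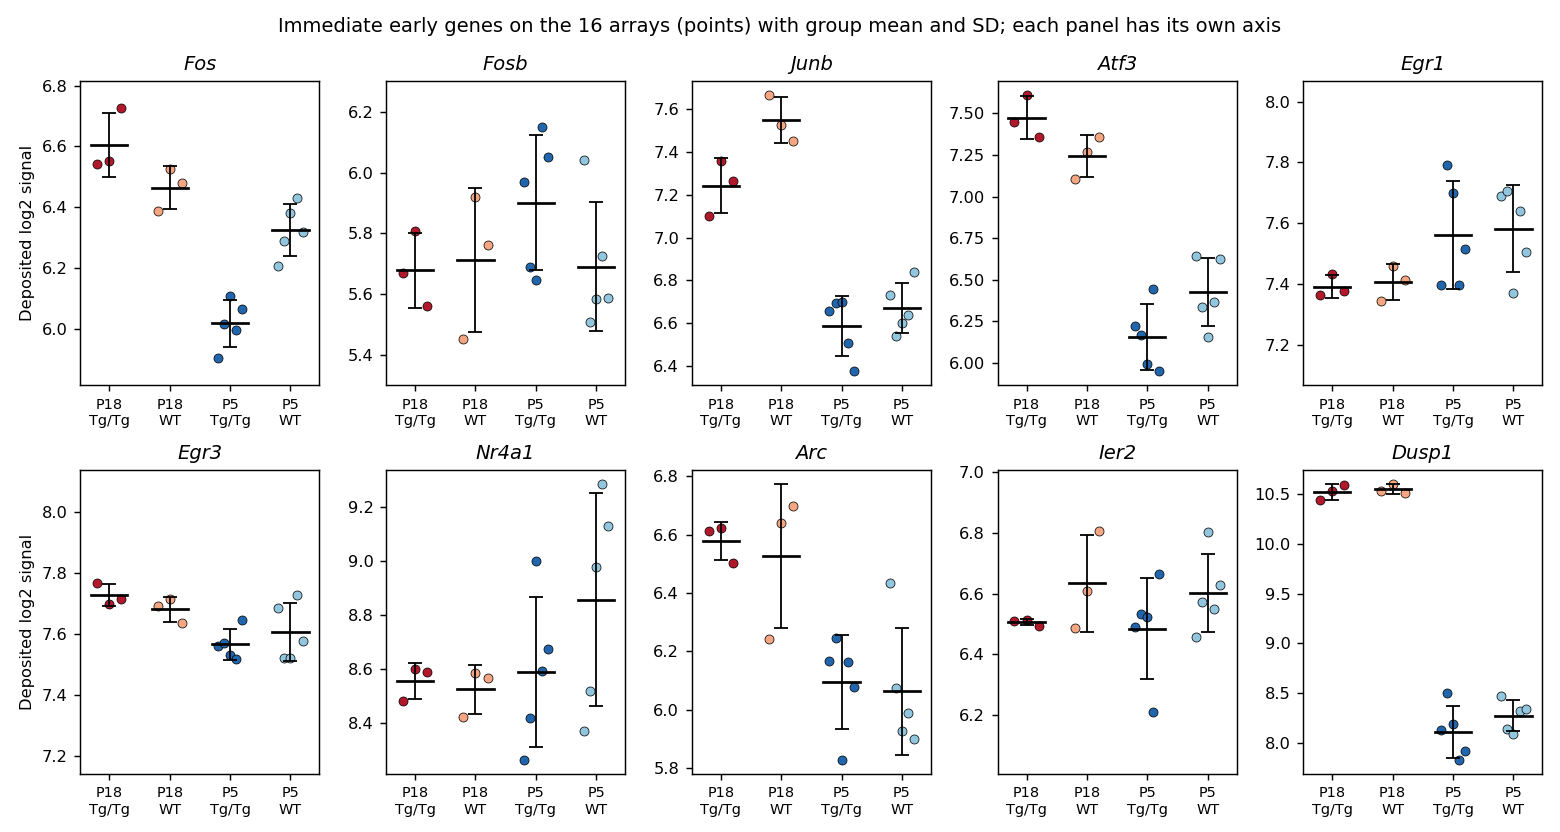
Deposited log2 signal of the 10 immediate early genes on each of the 16 arrays (points, replicates in numerical order from left to right), with group mean (line) and SD (bar) for P18-cochlea Tg/Tg and WT (n = 3 each) and P5-OC Tg/Tg and WT (n = 5 each). Dusp1 lay above 10.4 on every P18 array and at or below 8.50 on every P5 array, Fos was lowest in P5-OC Tg/Tg, and Nr4a1 spread most within the P5 groups.

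Fos encodes the partner of Jun proteins in the AP-1 transcription factor (probeset 10397346, chromosome 12, 85473890 to 85477274). Its log2 signals in the P5-OC were 5.90, 6.02, 6.11, 5.996 and 6.07 in Tg/Tg, against 6.21, 6.29, 6.38, 6.43 and 6.32 in WT. Every one of them lay below the median probeset of its array (6.51 to 6.63). The highest Tg/Tg array was below the lowest WT array. The log2 change was -0.31 (SE 0.07, 95% confidence interval -0.45 to -0.17, limma adjusted p = 0.0472), about 1.24-fold lower. With 1 of 10 members lower and none higher, the count stands against 0.549% of all probesets called lower in that comparison. That share moved with single arrays, to 4.21% without P5-OC Tg/Tg replicate 3, 1.17% without WT replicate 1 and down to 0.357% without WT replicate 5. Groups without overlap were likewise seen for 1 of 10 members, against 1.67% of all probesets. A further member, Atf3, passed an unadjusted p of 0.05, and the 2 of 10 compare with 16.4% of all probesets.

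The Fos call lay close to the threshold. The change held between -0.34 and -0.28 whichever array was left out, but the adjusted p ranged from 0.0158 to 0.128. The call was lost in 14 of these 16 fits. The adjusted p was 0.365 in the fit that took the Y-linked mean as covariate, where the change was still -0.31, and 0.235 with the P5 arrays fitted alone. By sex-linked level, the single P5-OC Tg/Tg array with a high Y-linked mean had the lowest Fos signal (5.90), and the single WT array with a low one had the lowest WT signal (6.21). The mean of the 3 measured markers of Schwann cells was 10.12 to 10.40 in P5-OC Tg/Tg and 10.86 to 11.06 in WT. Of the 3, Mbp and Pmp22 were called lower. The other, Sox10, was not (-0.14, limma adjusted p = 0.466), and its groups overlapped. The part of Schwann cells and of the Y-linked imbalance in the Fos difference was not tested.

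In P18-cochlea the Fos signals were 6.54, 6.55 and 6.73 in Tg/Tg and 6.39, 6.53 and 6.48 in WT. The highest WT array lay just under the lowest Tg/Tg array, and the change was 0.14 (95% confidence interval -0.04 to 0.32, limma adjusted p = 0.709), which is not a call. The genotype effect in P18-cochlea minus that in the P5-OC was 0.45 (95% confidence interval 0.22 to 0.68), with an adjusted p of 0.0778, so that a different effect of genotype in the 2 settings was not called. It was called, at an adjusted p of 0.0399 to 0.0405, when the test was limited to named probesets or given a term for P5 replicates 1 and 2, and at 0.0107 with array weights. Of all probesets tested in those fits, 1.52% were called higher and 0.259% lower, 0.921% and 0.121%, and 5.36% and 3.95%, in that order.

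Fosb, a close relative of Fos (probeset 10560481, chromosome 7, 19302696 to 19310118), was among the dimmest of these probesets, with array signals of 5.56 to 5.81 in P18-cochlea Tg/Tg, 5.45 to 5.92 in P18-cochlea WT, 5.65 to 6.15 in P5-OC Tg/Tg and 5.51 to 6.04 in P5-OC WT. All 16 values were below the median probeset of their array. The 4 groups overlapped one another, and its genotype change had a 95% confidence interval of -0.38 to 0.31 in P18-cochlea and -0.06 to 0.48 in the P5-OC.

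Junb, an AP-1 subunit that can restrain other Jun proteins (probeset 10580282, chromosome 8, 84976909 to 84978748), had signals of 7.10, 7.36 and 7.27 in P18-cochlea Tg/Tg, against 7.67, 7.53 and 7.45 in P18-cochlea WT. Every Tg/Tg array was below every WT array, by a mean of 0.31 (95% confidence interval of the change -0.54 to -0.08), and with an adjusted p of 0.359 this was not a call. In the P5-OC its signals were 6.38 to 6.699 in Tg/Tg and 6.54 to 6.84 in WT, which overlap.

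Atf3, a stress-induced factor of the ATF/CREB family and a marker of injured neurons (probeset 10361091, chromosome 1, 191170296 to 191183333), showed signals of 7.45, 7.61 and 7.36 in P18-cochlea Tg/Tg, against 7.10, 7.27 and 7.36 in P18-cochlea WT. The lowest Tg/Tg array and the highest WT array were nearly equal, and the change of 0.23 had a 95% confidence interval of -0.07 to 0.54. In the P5-OC the signals were 6.22, 6.17, 5.996, 6.45 and 5.95 in Tg/Tg, against 6.64, 6.34, 6.16, 6.37 and 6.63 in WT, with a change of -0.27 (95% confidence interval -0.51 to -0.03, limma adjusted p = 0.262). These P5 groups overlapped, and the difference between the 2 genotype effects was 0.50 (adjusted p = 0.248).

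Across the 10 members the P18-cochlea genotype comparison gave no call in either direction, against 0.443% of all probesets. At an unadjusted p of 0.05 it gave 1, Junb, against 8.77% of all probesets. Groups without overlap were seen for 3 of 10 members (Fos, Junb and Atf3), against 27.6% of all probesets. The difference of genotype effects gave no call among the members, against 0.596% of all probesets, and 2 at an unadjusted p of 0.05 (Fos and Atf3), against 14.3%. The 95% confidence intervals over all 10 genotype changes ran from -0.54 to 0.54 in P18-cochlea and from -0.62 to 0.48 in the P5-OC.

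**Figure D2:**
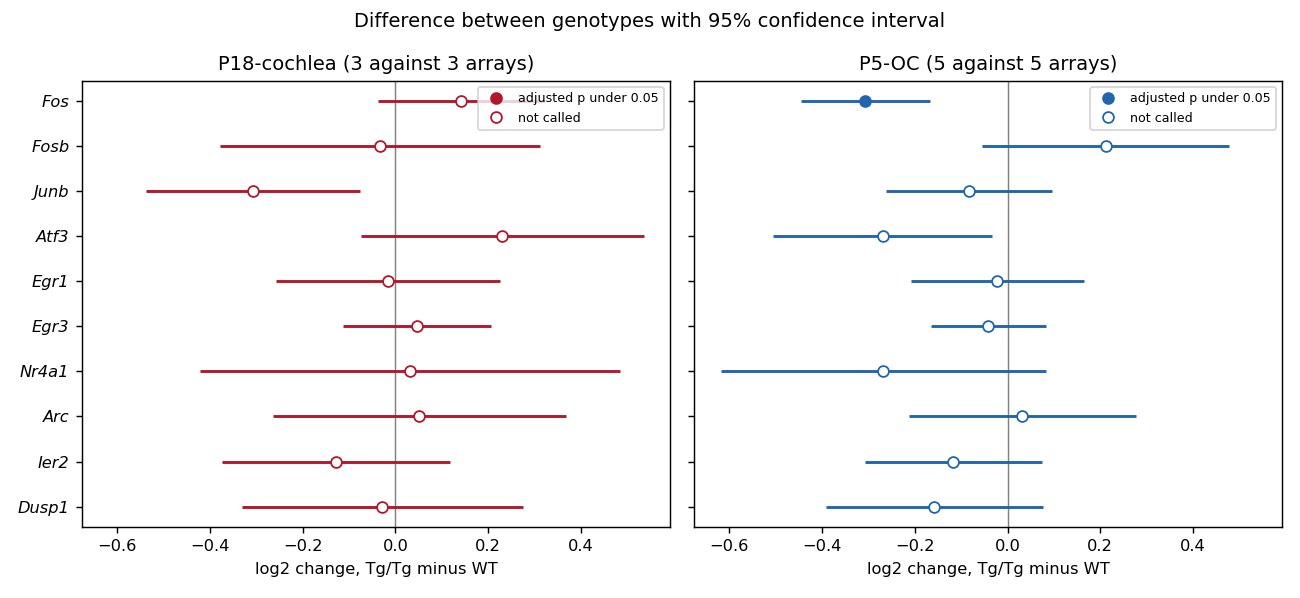
Difference in log2 signal between Tg/Tg and WT for each immediate early gene (point) with its 95% confidence interval (line), in P18-cochlea on the left and the P5-OC on the right, filled where the adjusted p was under 0.05. The filled point is Fos in the P5-OC, at -0.31, and in P18-cochlea no point is filled.

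Dusp1 encodes the phosphatase that inactivates MAP kinases after a stimulus and is induced by glucocorticoid (probeset 10449284, chromosome 17, 26505591 to 26508472). It was the member that differed most between the tissues. Its signals were 10.44, 10.53 and 10.59 in P18-cochlea Tg/Tg, against 8.13, 8.50, 8.19, 7.83 and 7.93 in P5-OC Tg/Tg. In WT they were 10.53, 10.60 and 10.51 in P18-cochlea, against 8.47, 8.15, 8.09, 8.32 and 8.34 in the P5-OC. The lowest P18 array was 1.93 log2 units above the highest P5 array. The change was 2.40 in Tg/Tg (SE 0.13, limma adjusted p = 3.95e-10) and 2.27 in WT (SE 0.13, adjusted p = 6.51e-10). Between genotypes Dusp1 differed by -0.03 in P18-cochlea (95% confidence interval -0.33 to 0.27) and by -0.16 in the P5-OC (-0.39 to 0.08).

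Atf3 was higher in P18-cochlea by 1.32 in Tg/Tg (adjusted p = 4.04e-07) and by 0.82 in WT (adjusted p = 5.99e-05), and no P5 array reached the P18 level of its genotype. Junb was higher by 0.66 in Tg/Tg (adjusted p = 3.41e-05) and by 0.88 in WT (adjusted p = 1.49e-06), again without overlap. Fos was higher by 0.59 in Tg/Tg (adjusted p = 8.1e-06), where the P18 arrays lay at 6.54 to 6.73 and the P5 arrays at 5.90 to 6.11, while in WT the change was 0.14 (adjusted p = 0.14), not a call, and they lay at 6.39 to 6.53 and 6.21 to 6.43. The Fos change in WT passed the threshold when arrays were centred on their medians (0.34, adjusted p = 0.00244) or quantile normalized again (0.33, adjusted p = 0.00382).

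Arc, the cytoskeletal protein made at active synapses (probeset 10429491, chromosome 15, 74669081 to 74672570), had signals of 6.61, 6.62 and 6.50 in P18-cochlea Tg/Tg, against 6.17, 6.25, 5.83, 6.16 and 6.08 in P5-OC Tg/Tg. In WT the signals were 6.24, 6.64 and 6.698 in P18-cochlea, against 6.43, 6.07, 5.93, 5.99 and 5.90 in the P5-OC. The Tg/Tg groups did not overlap, while 1 P18-cochlea WT array lay below the highest P5-OC WT array. The change was 0.48 in Tg/Tg (adjusted p = 0.00605) and 0.46 in WT (adjusted p = 0.00824), and without P18-cochlea WT replicate 3 the WT change was 0.38 (adjusted p = 0.0551).

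Counted over the members, 5 of 10 were called higher and none lower in Tg/Tg, against 21.1% of all probesets higher and 33% lower. In WT 4 of 10 were called higher and none lower, against 19.8% higher and 30.2% lower. Over the 19937 genes from which the members come, the shares were 28.4% higher and 26.8% lower in Tg/Tg. In WT they were 25% and 25.1%. At an unadjusted p of 0.05 no member was lower in either genotype, and 6 were higher in Tg/Tg and 4 in WT, against 22.7% of all probesets higher and 36.4% lower in Tg/Tg and 22% higher and 33.1% lower in WT. For all genes these shares were 30.2% and 30.1% in Tg/Tg, and 27.2% and 27.7% in WT. Groups without overlap were seen for 6 of 10 members in Tg/Tg and 3 of 10 in WT, against 52.7% and 49.2% of all probesets. The share of members that separated was thus near or below that of all probesets, and the calls in this fit were in 1 direction. The median member change was 0.32 in Tg/Tg and 0.11 in WT, beside -0.11 and -0.06 over all probesets.

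Signals of the whole array shifted between the tissues, so small changes depend on the scaling. With each array centred on its median, the median change over all probesets was 0.11 in Tg/Tg and 0.13 in WT, and the share of calls that were higher turned to 63.4% in Tg/Tg, against 38.9% as deposited, and to 61.7% in WT, against 39.6% as deposited. Relative to the median of all probesets as deposited, Dusp1 changed by 2.52 in Tg/Tg and 2.34 in WT, Atf3 by 1.43 and 0.88, Junb by 0.77 and 0.94, and Arc by 0.60 and 0.53. These 4 kept their direction and their call in both genotypes under centring and under repeated quantile normalization. Centring added Egr3 in both genotypes and Fos in WT to the members called higher.

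**Figure D3:**
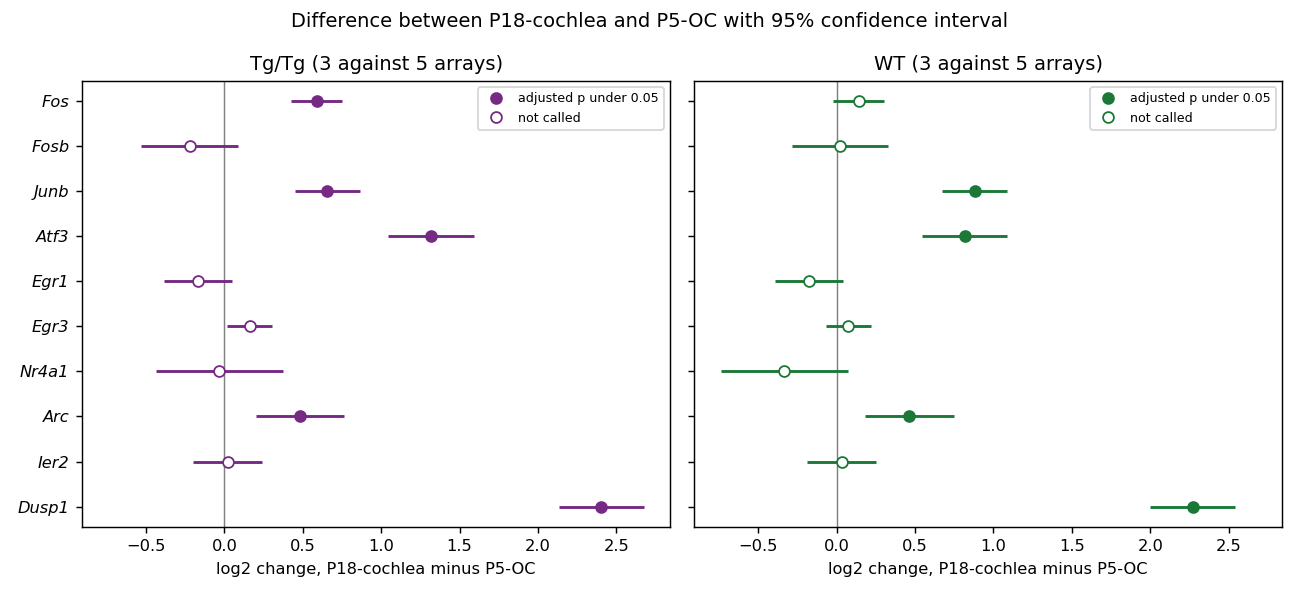
Log2 signal of each immediate early gene in P18-cochlea minus that in the P5-OC (point) with its 95% confidence interval (line), in Tg/Tg on the left and WT on the right, filled where the adjusted p was under 0.05. Dusp1 stands apart at 2.40 in Tg/Tg and 2.27 in WT, while Fosb, Egr1, Egr3, Nr4a1 and Ier2 are unfilled in both panels.

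The zinc finger factors Egr1 and Egr3 and the nuclear protein Ier2 gave no call on the signals as deposited. Egr1, a zinc finger factor of the serum and activity response (probeset 10454782), had signals of 7.36 to 7.43 in P18-cochlea Tg/Tg, 7.34 to 7.46 in P18-cochlea WT, 7.40 to 7.79 in P5-OC Tg/Tg and 7.37 to 7.71 in P5-OC WT, with no neighbouring pair of groups apart (adjusted p 0.219 to 0.991). Egr3, its relative in muscle spindle development (probeset 10416251, chromosome 14, 70077317 to 70082613), had 7.70 to 7.77 in P18-cochlea Tg/Tg, 7.64 to 7.71 in P18-cochlea WT, 7.52 to 7.65 in P5-OC Tg/Tg and 7.52 to 7.73 in P5-OC WT. It came nearest to a further call, with a change of 0.16 in Tg/Tg between P18-cochlea and the P5-OC and an adjusted p of 0.0532, and these Tg/Tg groups did not overlap. Ier2, a small nuclear protein of the growth factor response (probeset 10580183, chromosome 8, 84661331 to 84662852), had 6.49 to 6.51 in P18-cochlea Tg/Tg, 6.49 to 6.80 in P18-cochlea WT, 6.21 to 6.67 in P5-OC Tg/Tg and 6.46 to 6.80 in P5-OC WT. Its 3 P18-cochlea Tg/Tg arrays spanned 0.017.

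Nr4a1, an orphan nuclear receptor induced in many cell types (probeset 10427035, chromosome 15, 101253902 to 101274795), was the member that varied most between arrays of a group. Its P18 signals were 8.48, 8.60 and 8.59 in Tg/Tg and 8.42, 8.58 and 8.56 in WT. In the P5-OC they were 8.26, 8.42, 8.998, 8.59 and 8.67 in Tg/Tg, against 8.37, 8.52, 8.98, 9.29 and 9.13 in WT. In both genotypes P5 replicates 1 and 2 were the lowest, at or below 8.52, and replicates 3 to 5 were at 8.59 or above. The WT change between P18-cochlea and the P5-OC was accordingly -0.61 (adjusted p = 0.00106) with P5 replicates 3 to 5 alone. With replicates 1 and 2 alone it was 0.08 (adjusted p = 0.528), a split chosen after the values were seen. With all arrays it was -0.33 (adjusted p = 0.164). It was called lower with a term for P5 replicates 1 and 2 (-0.55, limma adjusted p = 0.000779) and with array weights (-0.47, limma adjusted p = 0.0102). Those fits called 30.4% and 33.6% of all probesets lower.

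Markers of other cells moved along the same replicates. The mean of 4 bone markers was 9.54 and 9.70 in P5-OC Tg/Tg replicates 1 and 2 and 8.15 to 8.53 in replicates 3 to 5, and 9.60 and 9.02 in WT replicates 1 and 2 and 8.18 to 8.29 in the others. Supporting cell markers ran the other way, at 9.36 and 9.43 in Tg/Tg replicates 1 and 2, against 9.89 to 10.14 in the others, and at 9.42 and 9.80 in WT, against 9.996 to 10.11. The labels name no batch for these replicates, and the part of tissue makeup in the Nr4a1 values was not tested.

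Between arrays of a group the members as a whole varied about as much as any probeset. The residual SD after removal of the 4 group means (12 degrees of freedom) had a median of 0.16 over the 10 members and 0.16 over all probesets, and 5 of 10 members were above the latter. Within P18-cochlea the medians were 0.10 for members and 0.10 for all probesets, and within the P5-OC 0.18 and 0.18. Nr4a1 was most variable, with a residual SD of 0.28, higher than 82.1% of probesets, followed by Fosb (0.21) and Arc (0.19). Egr3 was least variable, with 0.07, higher than 1.37% of probesets, and Fos, with 0.08, exceeded 5.44%. Dusp1 had a residual SD of 0.06 over the P18 arrays and 0.21 over the P5 arrays.

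The members did not rise and fall together from array to array. Over the 45 pairs of members, the correlation of deviations from the group means over 16 arrays was above 0 in 23 and had a median of 0.00, from -0.62 for Arc with Nr4a1 to 0.76 for Fos with Nr4a1. Fosb with Arc (0.70), Egr1 with Dusp1 (0.69) and Junb with Dusp1 (0.66) were the next most alike among each gene's best matches. Arrays share tissue makeup and normalization, so these values are descriptions only. No array was high or low for all members: the mean deviation of the 10 ran from -0.10, in P18-cochlea WT replicate 1, where 7 of 10 members were at the group's lowest value, to 0.06, in P5-OC WT replicate 1, where 7 of 10 were above the group mean. The 8 genes whose deviations over 16 arrays were most like the members' mean deviation were Pias3, Tmem204, Neurl2, Pfdn1, Lpar1, Meis3, Kctd1 and Zfp398 (r of 0.823 to 0.863), none of which is in the early response lists used here.

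**Figure D4:**
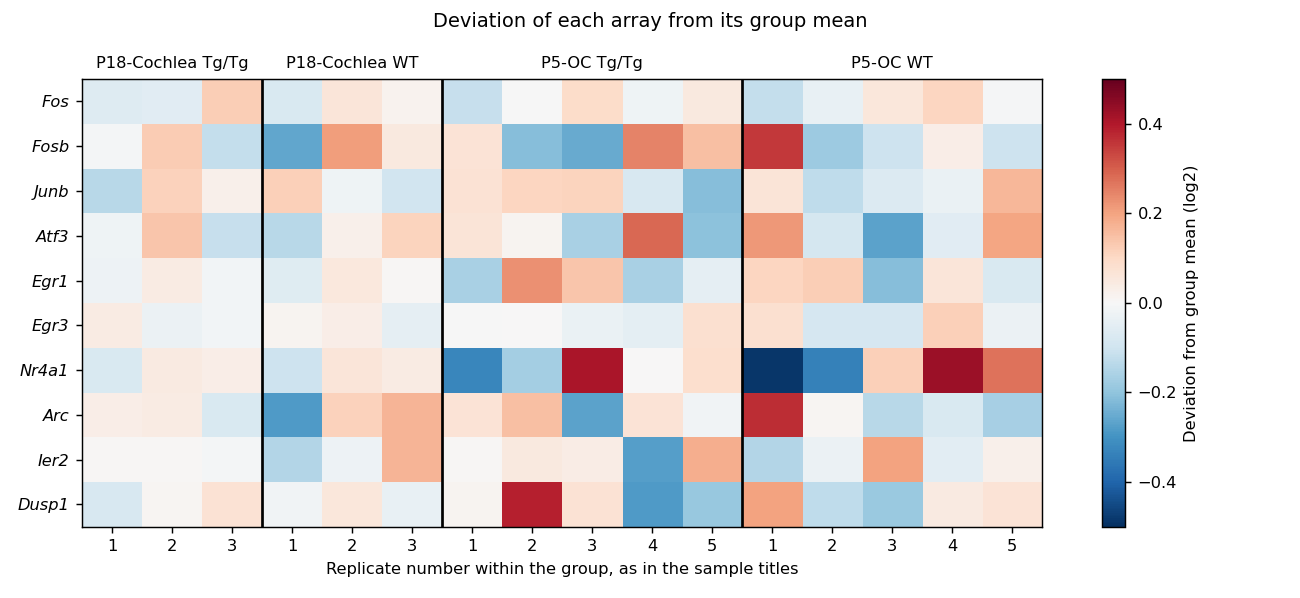
Deviation of each array from its group mean (log2, colour) for the 10 immediate early genes, with arrays grouped as P18-cochlea Tg/Tg, P18-cochlea WT, P5-OC Tg/Tg and P5-OC WT and ordered by replicate number. The Nr4a1 row is low in P5 replicates 1 and 2 of both genotypes and higher in later ones. In P5-OC Tg/Tg replicates 4 and 5 it lies near the group mean (0.003 and 0.08). No column is of 1 colour throughout.

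Most of the wider early response was, like Dusp1, Atf3 and Junb, higher in P18-cochlea than in the P5-OC. Of 58 other immediate early and early response genes, 56 had a single-symbol probeset. Between P18-cochlea and the P5-OC, 38 were called higher and 5 lower in Tg/Tg, against 28.4% and 26.8% of all 19937 genes, and 34 higher and 7 lower in WT, against 25% and 25.1% of all genes. Their median change was 0.57 in Tg/Tg and 0.55 in WT, beside -0.04 and -0.01 over all genes. Pim1, a survival kinase, was higher by 1.74 in Tg/Tg (adjusted p = 3e-10) and 1.90 in WT (adjusted p = 1.02e-10). Per1, a clock gene that glucocorticoid also induces, was higher by 1.44 in Tg/Tg and 1.64 in WT. Ppp1r15a, the phosphatase subunit of the integrated stress response, was higher by 1.55 and 1.67, and Sik1, a kinase induced by cAMP, by 1.42 and 1.28. Plk2, an activity-induced kinase, was the largest change in the other direction, lower by 1.03 in Tg/Tg (log2 change -1.03) and by 1.52 in WT (log2 change -1.52).

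Genes of heat shock, glucocorticoid and tissue handling, of which 27 of 30 were measured, gave calls in 1 direction. In Tg/Tg 19 were called higher and none lower, against 28.4% and 26.8% of all genes, and in WT 16 higher and none lower, against 25% and 25.1%. At an unadjusted p of 0.05 there were 20 higher and 0 lower in Tg/Tg, against 30.2% and 30.1% of all genes, and 17 higher and 1 lower in WT, against 27.2% and 27.7%. The median change was 0.87 in Tg/Tg and 0.71 in WT. Tsc22d3 (also called Gilz), a glucocorticoid target, was higher by 2.30 in Tg/Tg and 2.20 in WT. Fkbp5, a co-chaperone of the glucocorticoid receptor and its target, was higher by 1.81 and 2.23. Dnajb1, a heat shock co-chaperone, was higher by 1.99 in Tg/Tg and 1.55 in WT, Hmox1, heme oxygenase, by 1.84 and 1.45, and the inducible Hsp70 gene Hspa1a by 1.88 and 2.07.

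All of these genes were compared between microdissected organ of Corti and whole cochlear tissue, which differed in markers of bone, blood cells and neurons. Beside the neutrophil markers above, the 1 measured erythroid marker stood at 11.48 to 11.72 in P18-cochlea and 7.14 to 9.05 in the P5-OC, the 5 macrophage markers at 7.91 to 8.10 and 6.94 to 7.38, the 4 bone markers at 10.67 to 10.91 and 8.15 to 9.70, and the 5 neuron markers at 9.65 to 9.86 and 8.19 to 9.18. The part of these cells in the higher Dusp1, Atf3, Junb and Arc signals was not tested.

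The kinases and factors that act on immediate early genes were called in both directions. Of 27 listed, 22 were measured, and between P18-cochlea and the P5-OC 7 were higher and 5 lower in Tg/Tg, and 4 higher and 9 lower in WT, against the same shares of all genes (28.4% and 26.8% in Tg/Tg, 25% and 25.1% in WT), so that the Tg/Tg counts were near the background. Srf, serum response factor itself, was higher by 0.73 in Tg/Tg and 0.68 in WT. Its partner Elk1 was lower (log2 change -0.82 in Tg/Tg and -0.83 in WT), as were the CREB coactivator Crtc1 (-1.05 and -1.004) and the stress kinase Mapk8 (-0.53 and -1.004). Mef2c was higher by 1.11 in Tg/Tg and 0.80 in WT, and Atf1, a CREB relative, by 0.84 in both. Of 12 late activity response genes of neurons, 11 were measured, with 4 higher and 3 lower in Tg/Tg and 5 higher and 2 lower in WT, beside the same shares of all genes. Nrn1, neuritin, was higher by 2.84 in Tg/Tg and 2.27 in WT, Syt4, a synaptotagmin, by 1.11 and 0.69, and Inhba, an activin subunit, was lower (-1.32 and -1.57). Scg2, a secretogranin, was lower in Tg/Tg (-1.71, adjusted p = 0.0227) and had a change of -1.41 in WT (adjusted p = 0.0581). The Tg/Tg call was lost when arrays were quantile normalized again (adjusted p = 0.0645), with the Y-linked covariate (-1.32, adjusted p = 0.129), and without Tg/Tg replicate 1 or 3 of P18-cochlea or replicate 2 of the P5-OC (adjusted p of 0.0524 to 0.0686).

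**Figure D5:**
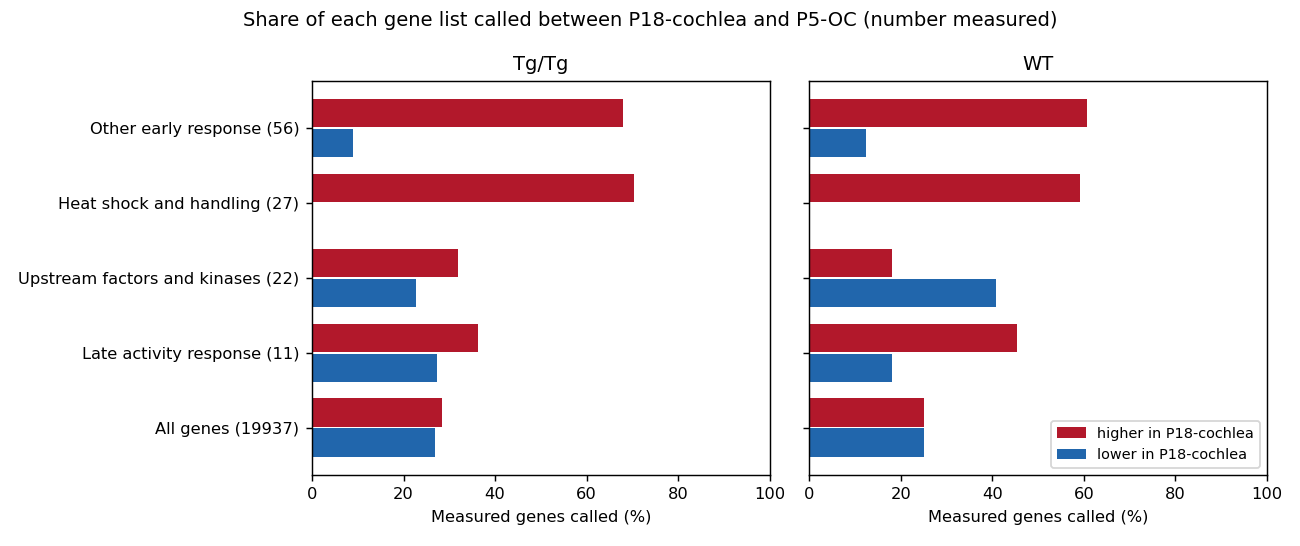
Percent of the measured genes of each list (number in parentheses) that were called higher (red) or lower (blue) in P18-cochlea than in the P5-OC, for Tg/Tg on the left and WT on the right, with all genes in the bottom row. Other early response genes (38 of 56 higher in Tg/Tg and 34 of 56 in WT) and heat shock and handling genes (19 and 16 of 27) lie to the higher side, and the remaining lists are mixed.

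Between genotypes the other early response genes gave a single call in the P5-OC, Egr2, against 0.858% of all genes lower. At an unadjusted p of 0.05, 2 of 56 were higher and 15 lower, against 6.15% and 11.5% of all genes. The single call became 7 with array weights, 10 without P5-OC Tg/Tg replicate 3 and 2 without P5-OC WT replicate 1. Over all probesets those fits called 2.08% higher and 2.85% lower, 4.15% and 4.21%, and 0.535% and 1.17%. Egr2 (also called Krox20) is the zinc finger factor that drives myelination in Schwann cells. Its P5-OC signals were 7.63, 7.998, 7.75, 7.20 and 7.26 in Tg/Tg, against 9.002, 9.31, 9.15, 9.09 and 9.24 in WT. The highest Tg/Tg array was 1.004 log2 units below the lowest WT array, and the change was -1.59 (SE 0.13, limma adjusted p = 4.28e-06). In P18-cochlea Egr2 had 8.32, 8.35 and 8.28 in Tg/Tg and 8.29, 8.30 and 8.46 in WT, which overlap, and the difference of the genotype effects was 1.55 (SE 0.21, adjusted p = 0.000902), against 0.818% of all genes called higher in that comparison. The Schwann cell markers, of which Mbp and Pmp22 but not Sox10 were called lower, are given beside Fos, and their part was not tested. The 2 members of the Egr family among the immediate early genes, Egr1 and Egr3, changed by -0.02 (95% confidence interval -0.21 to 0.17) and -0.04 (-0.17 to 0.08) in the same P5-OC comparison.

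In P18-cochlea the early response list gave no call between genotypes, with 1 higher and 4 lower of 56 at an unadjusted p of 0.05, against 6.49% and 3.65% of all genes. The heat shock and handling list gave none in P18-cochlea or the P5-OC, with 3 higher and 2 lower of 27 in P18-cochlea and 0 higher and 5 lower in the P5-OC at an unadjusted p of 0.05, beside the shares of all genes given above for each comparison. Mapk8, the kinase JNK1 that phosphorylates Jun, was higher in P18-cochlea Tg/Tg, with 8.59, 8.57 and 8.69, against 8.16, 8.25 and 8.18 in WT (0.42, SE 0.09, adjusted p = 0.0481), against 0.532% of all genes called higher there. Like that of Fos, this call lay at the threshold, and it was lost in 14 of the 16 fits that left out 1 array, where the adjusted p reached 0.264. Gem, a small GTPase of the late activity response, was higher in P18-cochlea Tg/Tg, with 7.84, 7.85 and 7.75, against 7.16, 7.35 and 7.28 in WT (0.55, SE 0.09, adjusted p = 0.0104). This call was lost when arrays were quantile normalized again (0.50, adjusted p = 0.0647) and without P18-cochlea Tg/Tg replicate 1 or 2 or WT replicate 1 or 3 (adjusted p of 0.0517 to 0.0838). In the P5-OC Gem had 5.97, 6.15, 6.001, 5.72 and 5.93 in Tg/Tg and 6.08, 6.17, 6.16, 6.12 and 6.12 in WT, and the difference of its genotype effects was 0.73 (adjusted p = 0.0063). The skeletal muscle markers that differed between the P18 genotypes are given above, and the 4 cerebellar granule cell markers were at 5.16 to 5.19 in P18-cochlea Tg/Tg and 6.50 to 6.57 in P18-cochlea WT. The part of such tissue in the Gem and Mapk8 differences was not tested. Whether the P18 arrays of a genotype hold separate pools is not given, so these adjusted p may rest partly on technical spread.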

How the data were processed

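Values were the deposited log2 signals of 16 Affymetrix MoGene 1.0 arrays, normalized by the authors before deposit. The background correction, normalization and probe summary are not given in the sources used here, and the submitters' processing notes name limma. Tissue was kept in RNAlater before extraction, and the time from dissection is not given. Gene names came from the platform annotation, with 21640 of 34760 probesets holding 1 symbol, 1321 several and 11799 none, and from RefSeq for GRCm38.p6. The deposited log2 values carry no detection call, so whether a signal lies above background is not known. The lowest member signal, 5.45, lay above the lower quartile of every array (4.54 to 5.05), which does not show detection. The precision of a group mean is limited by the number of arrays. Differences were tested with limma 3.58.1 in R 4.3.3 (lmFit, contrasts, eBayes) over all 16 arrays with 4 group means, and a change is the difference of group means on the log2 scale. The fit was tested on simulated data. All 10 members are named, and from each list up to 4 called genes with the smallest adjusted p plus the largest change in the other direction. The members, lists and alternatives were chosen with earlier results of these data known. Alternatives covered the scaling, the filter on dim probesets, the variance model, array weights, a replicate block, a term for P5 replicates 1 and 2, a Y-linked covariate, a fold limit and each array left out in turn.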

Additional observations from a re-analysis of the deposited data

Results flagged for a closer look

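For Fos every Tg/Tg array lay above every WT array in P18-cochlea, where the change was 0.14 (adjusted p = 0.709) and 27.6% of all probesets likewise did not overlap, and below every WT array in the P5-OC, where 1.67% did not overlap. The difference of the effects was 0.45 on the log2 scale, and limma's test of it gave an adjusted p of 0.0778, so an opposite effect in P18-cochlea was not shown. For Egr2 the difference of the effects was 1.55 (adjusted p = 0.000902), with a change of -0.04 in P18-cochlea and -1.59 in the P5-OC. For Gem it was 0.73 (adjusted p = 0.0063), with a change of 0.55 in P18-cochlea. Of 20 P5 groups of 5 arrays examined for the 10 members, 0 had an array beyond Dixon's critical value of 0.71, where chance would give about 1 in 20.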

How the results depend on the processing

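The calls on Dusp1, Junb and Atf3 between P18-cochlea and the P5-OC kept their direction and their side of the threshold under every alternative run on the fit other than the fold limit, under which Junb was not counted in either genotype and Atf3 not in WT. The calls on Fos in the P5-OC, Mapk8 and Gem in P18-cochlea, and Arc in WT and Scg2 in Tg/Tg between P18-cochlea and the P5-OC, were each lost under at least 1 alternative. The share of all probesets called between genotypes with 1 array left out was 0.245% (without Tg/Tg replicate 3) to 0.521% in P18-cochlea, and for the difference of effects 0.365% to 1.68% (without P5-OC Tg/Tg replicate 3). Of 803 values recomputed under alternatives other than leaving out 1 array, 726 were unchanged in call, or within 1.5 times for counts. Of 1360 with 1 array left out, 1272 were. The 33 member changes with an unadjusted p of 0.05 or more that are given below are outside these tallies. The alternatives for the gene lists, and the fits on P5 replicates 1 and 2 or 3 to 5 only, were chosen after seeing the data. Each member has 1 probeset, so averaging probesets changes nothing, and 19 of 33 member changes with an unadjusted p of 0.05 or more changed sign under at least 1 alternative. The cause of each change below was not tested.

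The count of members called between genotypes in the P5-OC, 1, was 0 with separate fits per age, without the dimmest 50% of probesets (where Fos was not among the 7 members tested), with arrays centred on their medians, with a trended and robust variance, with a fold change of at least 2, with the Y-linked covariate and in the P5 replicates 1 and 2 or 3 to 5 only, and it was 0 to 1 with 1 array left out. Fos then had a change of -0.31 to -0.32 in these fits, -0.29 (adjusted p = 0.375) in replicates 1 and 2 only and -0.32 (0.111) in replicates 3 to 5 only, with adjusted p of 0.235 for separate fits, 0.0554 for centred arrays, 0.0715 for the trended variance and 0.365 for the Y-linked covariate. For the difference of the genotype effects the count, 0, was 1 (Fos) with named probesets only, array weights and the P5 term. Shares of all probesets called in those fits are given beside Fos above. With 1 array left out the count was 0 to 1. With a fold change of at least 2, members called between P18-cochlea and the P5-OC were 2 in Tg/Tg, against 5 without that limit, and 1 in WT, against 4. The Nr4a1 change in Tg/Tg, -0.03, was 0.10 with the replicate block, 0.19 with centred arrays and 0.064 with array weights. It was 0.21 in P5 replicates 1 and 2 only and -0.12 to 0.069 with 1 array left out. In WT the Nr4a1 change, -0.33, was called lower with the P5 term (-0.55, limma adjusted p = 0.000779) and with array weights (-0.47, limma adjusted p = 0.0102). Those fits called 30.4% and 33.6% of all probesets lower. With 1 array left out the WT change ran from -0.45 to -0.23, with a lowest limma adjusted p of 0.0412. It was 0.078 in P5 replicates 1 and 2 only.

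With array weights, calls rose over all probesets, to 2.08% higher and 2.85% lower between genotypes in the P5-OC. They were 4.2% and 2.07% in P18-cochlea, and 5.36% and 3.95% for the difference of effects. The early response list, with 1 call in the P5-OC between genotypes, gave 2 without dim probesets or with named probesets only and 7 with array weights, and 1 to 10 with 1 array left out. In P18-cochlea its 0 calls became 5 with array weights and 0 to 1 with 1 array left out, and for the difference of effects its 1 became 9 with array weights. With a fold change of at least 2 it gave 19 in Tg/Tg and 17 in WT between P18-cochlea and the P5-OC. The upstream list gave 2 with array weights in the P5-OC (0 to 4 with 1 array left out), 2 with array weights in P18-cochlea and 0 with the replicate block, quantile normalization, centred arrays, the fold limit or the Y-linked covariate (0 to 1 with 1 array left out). For the difference of effects it gave 1 without dim probesets, with named probesets only or with the trended variance, 3 with array weights and 0 to 1 with 1 array left out, and with the fold limit it gave 2 in Tg/Tg and 3 in WT. The heat shock list gave 1 in the P5-OC without dim probesets, with named probesets only or array weights, 2 with the P5 term and 0 to 3 with 1 array left out. In P18-cochlea it gave 1 with separate fits, named probesets only or the P5 term and 4 with array weights, for the difference of effects 3 with array weights and 0 to 1 with 1 array left out, and with the fold limit 11 in Tg/Tg and 10 in WT. The late activity list gave 2 with array weights in the P5-OC (0 to 3 with 1 array left out), 0 with quantile normalization or the fold limit in P18-cochlea (0 to 1 with 1 array left out), and for the difference of effects 3 with array weights and 0 with the fold limit. With the fold limit it gave 3 in WT between P18-cochlea and the P5-OC.

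With the replicate number as a block, the counts of members called were 1 in the P5-OC (Fos, adjusted p = 0.0493), 0 in P18-cochlea and 0 for the difference of effects, and 5 in Tg/Tg and 4 in WT between P18-cochlea and the P5-OC, the same as without it. Deviations of same-numbered Tg/Tg and WT arrays correlated at 0.00 to 0.07 in P18-cochlea and -0.22 to 0.36 in the P5-OC, so the numbers were not taken as pairs.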
